A study of Populus trichocarpa with 12 samples.

Results

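Chromosomes 8 and 10 of Populus trichocarpa (black cottonwood) held 3463 of the 22706 differential H3K9ac regions listed for 2 stages of drought against watered plants. Members were chosen by position alone, as every region on either chromosome, whatever its change. At day 5 they were 1573 of 10605 regions (760 on chromosome 8 and 813 on chromosome 10), and at day 7 they were 1890 of 12101 (908 and 982). The regions come from ChIP-seq, the sequencing of immunoprecipitated chromatin, in stem differentiating xylem, the tissue that forms wood. Plants were 3 months old. The day 5 group had gone 5 days without watering and was in mild drought, with 33% soil water and 75.3% xylem water. The day 7 group had gone 7 days without watering and was in severe drought, with 29% soil water and 74.3% xylem water. The day 0 group was fully irrigated, with 74% soil water and 80.6% xylem water. Each group had 2 H3K9ac libraries and 2 input libraries, the input being sonicated chromatin DNA without immunoprecipitation.

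The poplar lineage went through a duplication of its whole genome, and most chromosome segments still have a partner that carries many of the same genes in the same order. Chromosomes 8 and 10 are a pair in which such shared gene order runs along most of both chromosomes. H3K9ac, the acetylation of lysine 9 of histone H3, is set by histone acetyltransferases and removed by deacetylases, and in plants it sits mainly over the start of transcribed genes. Duplicated genes begin with the same sequence and may keep or lose each other's regulation, so the pair offers a view of how the mark lies on both copies.

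The labels do not say whether the 2 libraries of a group came from separate plants, so p-values measure the spread between these libraries, which may be technical. Day 0 is the only watered group, so drought and time cannot be told apart. In the member regions, the reads recovered per library numbered 861932 and 589552 at day 5, against 768760 and 778405 at day 0, and 598860 and 755801 at day 7, against 835586 and 848514 at day 0 in the day 7 list. Regions are listed only where a test on the same libraries passed a threshold, so p-values computed on them are too small. For the same reason, libraries of the groups lying apart in a named region are a description and no added support. Coordinates are those of the files, whose genome build is not given in full in the sources used here. Genes were therefore not assigned to regions, and the xylem identity of the libraries could not be checked against marker genes.

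Both chromosomes were among those most densely set with differential regions. Over the span up to the last listed region (19.2 Mb on chromosome 8 and 22.6 Mb on chromosome 10), chromosome 8 had 39.7 listed regions per Mb at day 5 and chromosome 10 had 36.0, against 25.6 over the other 17 chromosomes pooled. The single chromosomes among those 17 lay between 16.2 and 41.1, with a median of 24.2. Chromosome 8 ranked 2 and chromosome 10 ranked 4 of 19. At day 7 the densities were 47.4 per Mb on chromosome 8 and 43.5 on chromosome 10, against 28.9 on the other 17, whose single values ran between 18.8 and 46.7. Chromosome 8 then ranked 1 and chromosome 10 ranked 3. Chromosome 9 was above both at day 5, and chromosome 2 stood above chromosome 10 at day 5. A high density was therefore not confined to chromosomes 8 and 10. Listed regions can overlap, and each counts in full here and in summed reads. Their summed length was 6.16% of the span on chromosome 8 and 5.44% on chromosome 10 at day 5, against 3.94% on the others. At day 7 it was 7.03% and 6.23%, against 4.28%. Each chromosome has 1 value per day, so these densities are descriptions, and no test of the difference was run. Set against the number of protein-coding genes per chromosome in the RefSeq table of assembly P.trichocarpa_v4.1, which may not be the build of the files, the difference was smaller. Per 100 genes, chromosome 8 had 43.7 listed regions and chromosome 10 had 40.7 at day 5, against 35.1 on the other 17, and at day 7 they had 52.2 and 49.2, against 39.7.

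**Figure D1:**
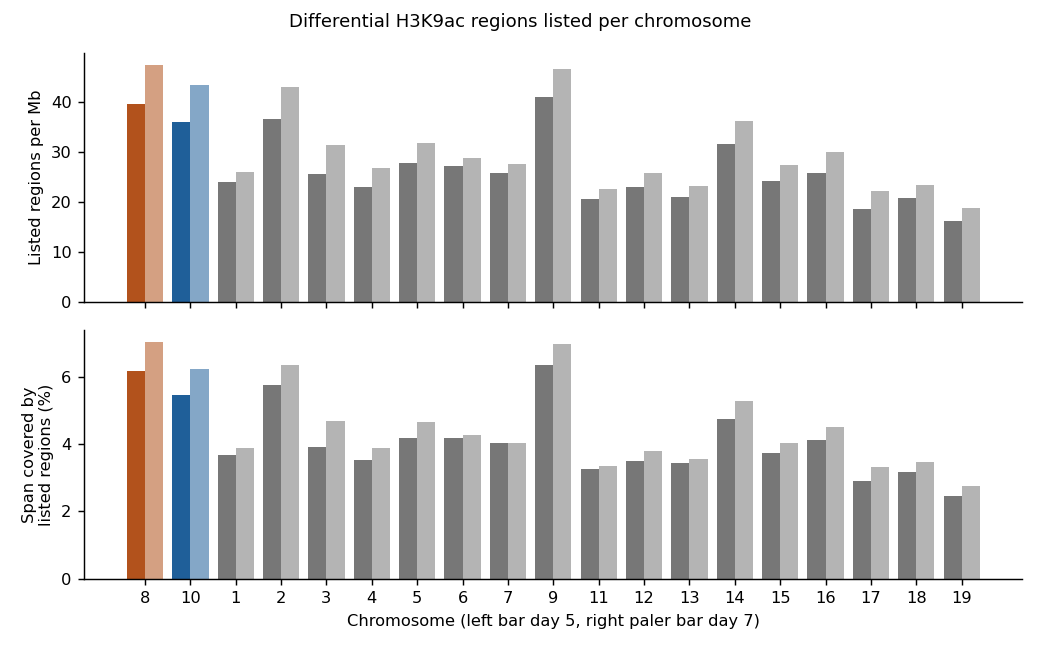
Listed H3K9ac regions per Mb (top) and their summed length as percent of the chromosome span (bottom), for chromosomes 8 and 10 in colour and the other 17 in grey, with day 5 as the left bar and day 7 as the paler right bar. Chromosome 8 stands at 39.7 and 47.4 per Mb and chromosome 10 at 36.0 and 43.5, with chromosomes 2 and 9 at a like height.

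Along each chromosome the regions were spread unevenly, with a long dense stretch and a stretch nearly free of them. On chromosome 8 the first 15 bins of 1 Mb held between 22 and 60 regions each at day 5 and between 23 and 74 at day 7. The 4 bins from 15 to 19 Mb held between 3 and 7 at day 5 and between 3 and 9 at day 7. The fullest bin of chromosome 8 on both days was that from 4 to 5 Mb, with 60 regions at day 5 and 74 at day 7. On chromosome 10 the thin stretch lay near the other end. The bin from 2 to 3 Mb held 2 regions on each day, and that from 5 to 6 Mb held 5 at day 5 and 3 at day 7, while the first 2 bins held 32 and 24 at day 5. Beyond 10 Mb every whole bin of chromosome 10 held at least 33 regions at day 5 and at least 46 at day 7. The bin from 18 to 19 Mb was the fullest, with 79 regions at day 5 and 84 at day 7. The summed length of its regions was 12.4% of the bin at day 5.

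When chromosome 10 was read backwards from its last listed region, its density profile ran alongside that of chromosome 8. In this reading 15 of 19 steps of 1 Mb differed by at most 10 regions at day 5, with a median difference of 6, and 14 of 19 did so at day 7, with a median difference of 8. The first 5 steps together held 260 regions on chromosome 8 and 280 on chromosome 10 at day 5, and 332 and 335 at day 7. The widest gap was at the step from 12 to 13 Mb, where chromosome 8 held 50 regions and chromosome 10 held 24 at day 5, and 59 and 33 at day 7. Pearson's r over the 19 steps was 0.88 on each day (Spearman's rho 0.72 on each day). Read forward from position 1 on both, r was -0.77 at day 5 and -0.75 at day 7.

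The likeness of the 2 density profiles leaned on their thin ends. Without the bins with fewer than 10 listed regions, r in the reversed reading was 0.54 at day 5 and 0.49 at day 7, over 15 steps. With each span cut into 20 equal shares it was 0.74 and 0.75. Among all 171 pairs of chromosomes, cut in the same way and each read in whichever direction gave the larger r, the median was 0.39 at day 5 and 0.42 at day 7. The pair of chromosomes 8 and 10 ranked 10 at day 5 and 15 at day 7, below the highest pairs at 0.85 (chromosomes 13 and 15) and 0.90 (chromosomes 3 and 10). Bins of a chromosome are neighbours in the same libraries, so these coefficients are descriptions. The direction in which the collinear genes run was not established here, and both readings are given for that reason.

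**Figure D2:**
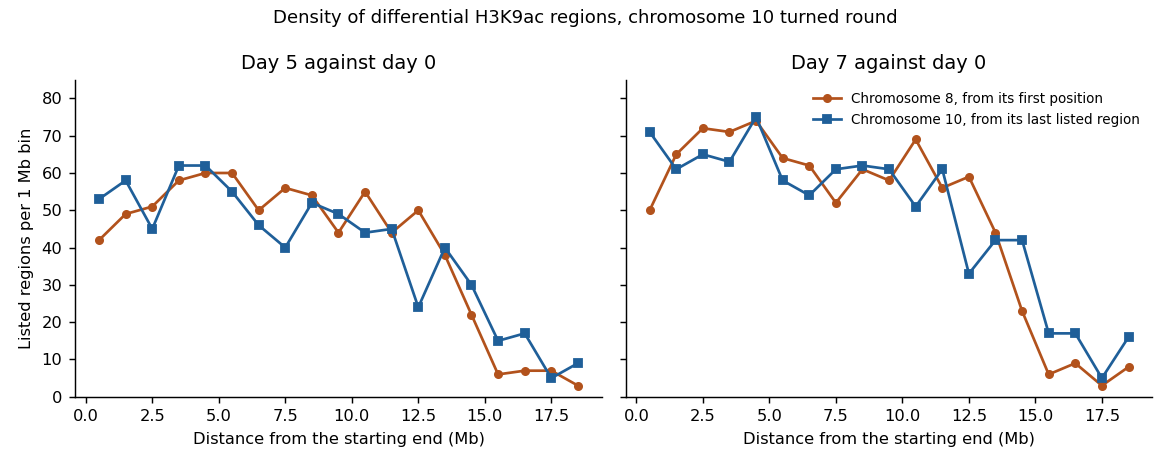
Listed regions per 1 Mb bin against distance from the starting end in Mb, for chromosome 8 from position 1 and chromosome 10 from its last listed region, at day 5 (left) and day 7 (right). Both lines stay high over the first 11 Mb and fall beyond 14 Mb, and they part most at the step from 12 to 13 Mb, with 50 against 24 regions at day 5.

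Regions were of like length and enrichment on both chromosomes. Median length was 1300 bp on each chromosome at day 5, as on the other 17, and 1300 bp on chromosome 8 and 1200 bp on chromosome 10 at day 7, against 1200 bp on the others. The longest region measured 5600 bp on chromosome 8 and 4300 bp on chromosome 10 at day 5. Elsewhere it was 19500 bp on chromosome 13, 13300 bp on chromosome 2 and between 4600 and 6300 bp on each of the others. Regions of 3 kb or more numbered 42 (5.53%) and 34 (4.18%) at day 5, against 4.5% on the other 17. At day 7 they numbered 36 (3.96%) and 32 (3.26%), against 3.67%. Enrichment, the H3K9ac signal over input, was taken as the geometric mean of both groups' deposited ratios. Its median was 1.97 on chromosome 8 and 1.88 on chromosome 10 at day 5, against 1.89 on the others, and 1.78 and 1.73 at day 7, against 1.76. In thin stretches it was lower. In the 4 bins of chromosome 8 from 15 to 19 Mb the median was 1.56 over 23 regions at day 5, against 1.98 over the 733 regions of its other bins, and at day 7 it was 1.43 over 26 regions, against 1.79 over 880. The profiles of median enrichment and of median length along the 2 chromosomes did not run alongside each other in the reversed reading (r of -0.13 and -0.27 at day 5, 0.19 and 0.20 at day 7).

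At day 5, more of the regions on the pair were lower than higher. A region was called where limma's test on log2 normalised reads, fitted over the whole list, gave a Benjamini-Hochberg adjusted p under 0.05. By this rule 1320 of the 1573 members (83.9%) were called, against a background of 83.8% of all listed regions. On chromosome 8, 298 regions were higher and 344 lower, and on chromosome 10, 316 were higher and 362 lower. Together 39.0% of members were higher, against 39.5% of all listed regions, and 44.9% were lower, against 44.3%. The members' shares were thus near the background in either direction. In the authors' deposited table, an adjusted p under 0.05 was reached by 90.8% of members, against 91.5% of all listed regions (43.3% higher and 48.2% lower). This deposited value did not always follow the change. At chr8:3998401-3999400 it was 1.7e-09, with 853 and 855 reads at day 5, against 865 and 810 at day 0 (limma adjusted p = 0.69). At chr8:250201-251400 it was 0.19, where the limma adjusted p was 0.011.

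The changes at day 5 were mostly modest. The median ratio of day 5 over day 0 among higher regions was 1.33 on chromosome 8 and 1.37 on chromosome 10, and among lower regions it was 0.739 and 0.740. Members called past a 2-fold rise numbered 6 (0.381%), against 0.802% of all listed regions, and those past a 2-fold fall numbered 7 (0.445%), against 0.773%. Summed over all listed regions of chromosome 8, normalised reads were 362441 and 364084 at day 5, against 380210 and 375750 at day 0. Over chromosome 10 they were 369350 and 373870 at day 5, against 374380 and 375574 at day 0. Both day 5 sums lay below both day 0 sums on each chromosome. The same held over the other 17 chromosomes pooled, with 4179318 and 4265402 at day 5, against 4285837 and 4277870 at day 0. The ratio of day 5 over day 0 sums was 0.961 on chromosome 8 and 0.991 on chromosome 10, against 0.986 on the others. Leaving out the first day 0 library lowered the calls to 409 higher and 460 lower members.

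The largest rise of day 5 on the pair was on chromosome 10, at chr10:9919301-9921400. It had 743 and 741 normalised reads at day 5, against 290 and 291 at day 0, a 2.55-fold difference (log2 1.35, SE 0.07, limma adjusted p = 0.00029). The other 3 of the 4 highest regions of chromosome 10 all lay within its first 2 Mb, at either side of 1 Mb. That at chr10:1551201-1553300 had 497 and 595 reads at day 5, against 247 and 223 at day 0. Next came chr10:637401-639900, with 1151 and 1219 at day 5, against 596 and 535 at day 0. The fourth, chr10:1614101-1616000, had 532 and 626 at day 5, against 263 and 311 at day 0. In each of these 4 regions both day 5 libraries lay above both day 0 libraries, which their choice as the highest favours. The ratio of the group means was at least 2.02.

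On chromosome 8 the largest rise of day 5 was at chr8:584301-587600, a region of 3300 bp. Its libraries had 1096 and 1125 normalised reads at day 5, against 481 and 452 at day 0, a 2.38-fold difference (log2 1.25, SE 0.07, limma adjusted p = 0.00029). The largest fall of chromosome 8 lay before it, at chr8:377201-380300, with 617 and 538 reads at day 5, against 1403 and 1310 at day 0 (ratio 0.426, log2 -1.23, SE 0.09, limma adjusted p = 0.0003). A strong gain and a strong loss thus stood within 1 Mb of each other near the start of the chromosome. The other 3 of the 4 lowest regions had ratios of 0.455 (chr8:3752701-3756100), 0.475 (chr8:14197501-14200900) and 0.481 (chr8:14452901-14456700), and their libraries did not overlap between the groups. The other 3 of the 4 highest had ratios of 2.08 (chr8:8797801-8799200), 1.94 (chr8:4247201-4249000) and 1.92 (chr8:12233401-12236100), again with no overlap. Regions picked as the most changed tend to be apart by that choice.

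The 2 deepest falls of chromosome 10 at day 5 both lay in the bin from 14 to 15 Mb. The region chr10:14462401-14464900 had 476 and 392 reads at day 5, against 1092 and 946 at day 0 (ratio 0.426, log2 -1.23, SE 0.11, limma adjusted p = 0.00043). That at chr10:14360701-14362900 had 358 and 327 at day 5, against 722 and 714 at day 0. Both had less than 0.5 times their day 0 level. The next lowest, chr10:18416801-18419800 and chr10:10402301-10404800, had ratios of 0.538 and 0.544. The 4 lowest regions of each chromosome at day 5 were all at least 2200 bp long.

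At day 7 higher regions outnumbered lower ones on both chromosomes. The limma test called 1534 of the 1890 members (81.2%), against a background of 83.4%. On chromosome 8, 387 regions were higher and 357 lower, and on chromosome 10, 423 were higher and 367 lower. Higher regions made up 42.9% of members, against 41.4% of all listed regions, and lower ones 38.3%, against 42.0%. Of the called members 52.8% were higher, against 48.9% on the other 17 chromosomes, whose single values ran between 39.0% and 57.0%. Chromosome 10 ranked 3 and chromosome 8 ranked 4 of 19 in this share. It was not tested, since regions of a chromosome are not replicates. By the authors' deposited table, members with an adjusted p under 0.05 made up 88.6%, against 89.1% of all listed regions (44.1% higher and 45.0% lower).

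The excess of gains at day 7 depended on how libraries were scaled. With libraries scaled by their mean reads per 1 kb bin in place of the deposited constants, 441 members were higher and 918 lower, a share higher of 32.5%, and the median of all listed regions was -0.24 on the log2 scale, against -0.06 as deposited. The same scaling at day 5 gave 464 higher and 799 lower members, a share higher of 36.7% against 46.5% as deposited, with a median of all listed regions of -0.19, against -0.09. Directions below are on the deposited scale. Summed normalised reads of chromosome 8 were 366706 and 368842 at day 7, against 369940 and 368384 at day 0, so the groups overlapped. Those of chromosome 10 were 387263 and 389633 at day 7, against 382678 and 381630 at day 0, with both day 7 libraries above.

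At day 7, members called past a 2-fold rise numbered 16 (0.847%), against 0.884% of all listed regions, and those past a 2-fold fall numbered 6 (0.317%), against 0.669%. The share of such gains was thus near the background. The largest gain was at chr10:1551101-1553400, the same site as the second highest of day 5. It had 599 and 711 normalised reads at day 7, against 231 and 209 at day 0, a 2.98-fold difference (log2 1.57, SE 0.09, limma adjusted p = 7.7e-07). The shortest of the highest regions, chr10:13290501-13291500, had 237 and 226 reads at day 7, against 82.9 and 106 at day 0, a 2.45-fold difference over 1000 bp. The sites chr10:637401-639900 and chr10:9919301-9921400 completed the 4 highest, at ratios of 2.42 and 2.33. In all 4 the libraries of day 7 lay above those of day 0, which their choice as the highest favours.

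Of the 4 highest regions of chromosome 8 at day 7, 3 lay in the bin from 6 to 7 Mb, and 2 of these almost touched. The region chr8:6762301-6764600 had 661 and 663 reads at day 7, against 244 and 263 at day 0, a 2.61-fold difference (log2 1.39, SE 0.08, limma adjusted p = 6.6e-07). Just before it, chr8:6758701-6762000 had 1079 and 1117 at day 7, against 534 and 500 at day 0. The third, chr8:6547701-6550500, had 781 and 838 at day 7, against 374 and 408 at day 0. Among bins with at least 10 called regions, this bin also had the highest share of gains of chromosome 8 at day 7. In it 37 of 57 called regions were higher (64.9%). Its summed normalised reads were 23250 and 24026 at day 7, against 20424 and 20727 at day 0.

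The deepest falls of chromosome 8 at day 7 again began near its start. The region chr8:377201-380400 had 517 and 461 reads at day 7, against 1304 and 1206 at day 0 (ratio 0.390, log2 -1.36, SE 0.09, limma adjusted p = 9.2e-07), the lowest ratio of the pair on either day. The region chr8:688201-691200 had 472 and 498 at day 7, against 1058 and 1146 at day 0, and chr8:11760601-11764200 had 612 and 584 at day 7, against 1353 and 1342 at day 0. All 3 were at or under 0.444 times the day 0 level. On chromosome 10 the lowest was chr10:18416801-18419800, with 637 and 665 at day 7, against 1424 and 1410 at day 0 (ratio 0.460). It lay in the fullest bin of the chromosome, which also held chr10:18117801-18119600 and chr10:18105901-18108000, at ratios of 0.50 and 0.501.

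A set of regions was called in 1 direction on both days, where each region overlapped its counterpart by at least 50% of either length. There were 291 such pairs of regions higher on chromosomes 8 and 10, which is 18.5% of their day 5 list and 15.4% of their day 7 list, against 17.4% and 15.2% over all 19 chromosomes. Pairs lower numbered 385, or 24.5% and 20.4% of the same lists, against 25.5% and 22.4%. These shares were near the background in either direction. Both days are set against the same day 0 libraries, so the second day adds no independent control. Among the gains, chr8:4247201-4249000 had 401 and 502 reads at day 5, against 237 and 228 at day 0, and its counterpart chr8:4247101-4248900 had 397 and 414 at day 7, against 213 and 208 at day 0. The counterpart of the largest gain of chromosome 8 at day 7 was chr8:6762401-6764400 in the day 5 list, with 477 and 536 reads at day 5, against 249 and 278 at day 0 (ratio 1.92). Among the losses, chr8:14197501-14200900 had the same bounds on both days, with 445 and 519 at day 5, against 980 and 1051 at day 0, and with 443 and 512 at day 7, against 899 and 963 at day 0. The site chr8:11760601-11764500 had 779 and 817 at day 5, against 1524 and 1535 at day 0. On chromosome 10, chr10:7806901-7808600 was the shortest of the 3 losses named by size of change, with 187 and 262 reads at day 5, against 354 and 437 at day 0 (ratio 0.566, limma adjusted p = 0.0036). Both of its day 5 libraries still lay below both day 0 libraries.

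Deposited enrichment over input is given here for the largest gain and the deepest fall of day 7. It is built on the same H3K9ac libraries that picked these sites, so it is no separate support for the changes. At chr10:1551101-1553400 the deposited enrichment was 4.44 at day 7, against 1.31 at day 0. At chr8:377201-380400 it was 0.56 at day 7, against 2.09 at day 0. In the deposited tables drought immunoprecipitates are set over day 0 inputs, and day 0 immunoprecipitates over drought inputs, so these ratios mix the days.

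**Figure D3:**
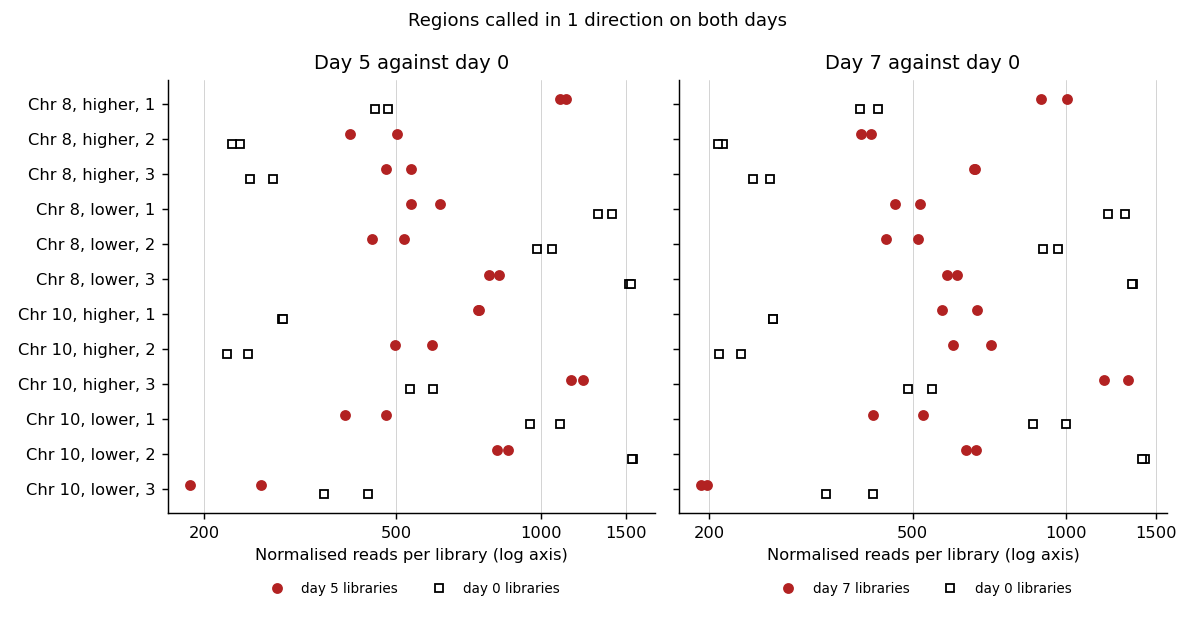
Normalised reads per library (log axis) in the 3 higher and 3 lower regions of each chromosome with the largest change called on both days, numbered by size, with drought libraries as filled circles and day 0 libraries as open squares, for day 5 (left) and day 7 (right). In all 12 sites the circles and squares are apart on both days, as at the first gain of chromosome 10 with 743 and 741 at day 5 against 290 and 291 at day 0. The sites were picked for such changes, so this separation follows from the choice.

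Bins of 1 Mb differed in direction, and losses were most concentrated in a bin of chromosome 10. In the bin from 6 to 7 Mb, 2 of 15 called regions were higher at day 5 (13.3%) and 3 of 18 at day 7 (16.7%). Its summed normalised reads were 8783 and 8787 at day 5, against 9694 and 9728 at day 0, and 8999 and 8771 at day 7, against 10335 and 10073 at day 0. The very next bin, from 7 to 8 Mb, had 14 of 22 called regions higher at day 5 (63.6%). This was the highest share on the chromosome among bins with at least 10 called regions. At day 7 that bin had 16 of 24 (66.7%), and the bin from 10 to 11 Mb had the highest such share with 25 of 37 (67.6%).

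Chromosome 8 had a like contrast of neighbours at day 5. In its bin from 11 to 12 Mb, 26 of 37 called regions were higher (70.3%), and summed reads were 22217 and 22659 at day 5, against 19492 and 19543 at day 0. In the bin before it, 15 of 47 were higher (31.9%), with sums of 27207 and 26772 at day 5, against 29495 and 29793 at day 0. At day 7 those bins had 30 of 47 higher (63.8%) and 21 of 53 (39.6%). The bin of chromosome 8 from 13 to 14 Mb had 12 of 40 higher at day 7 (30.0%). This was the lowest share of the chromosome among bins with at least 10 called regions. The sums of that bin were 17399 and 17392 at day 7, against 20085 and 19749 at day 0.

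Direction along the chromosomes showed no shared profile that held. In the reversed reading the share of listed regions above their day 0 level had an r of -0.25 at day 5 and -0.15 at day 7 over 19 steps. With 20 equal shares of each span, r was 0.13 and 0.38. The sign thus turned with the way the bins were drawn. In the reversed reading the step from 11 to 12 Mb had 68.2% of regions above day 0 on chromosome 8 and 44.4% on chromosome 10 at day 5.

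**Figure D4:**
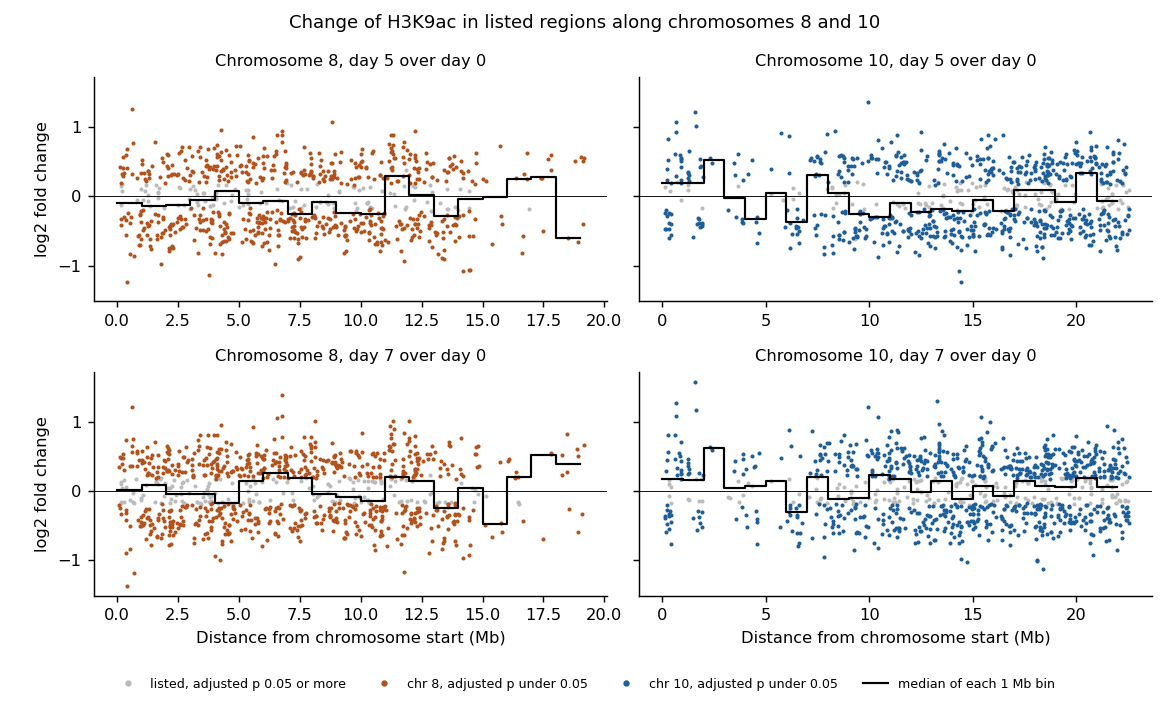
The log2 fold change of each listed region over day 0 against distance from the chromosome start in Mb, for chromosome 8 (left) and chromosome 10 (right) at day 5 (top) and day 7 (bottom), with called regions in colour, the others in grey and the median of each 1 Mb bin as a black line. Gains and losses stand in nearly every bin, and the bin from 6 to 7 Mb of chromosome 10 has 2 of 15 called regions higher at day 5 and 3 of 18 at day 7.

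Neighbouring regions often changed the same way. Among called regions with a gap of at most 5 kb to the next, 92 of 141 neighbours on chromosome 8 (65.2%) and 113 of 148 on chromosome 10 (76.4%) had the same direction at day 5, against 78.0% on the other 17 chromosomes. At day 7 these were 126 of 197 (64.0%) and 139 of 200 (69.5%), against 70.7%. Regions are made by merging windows, so which neighbours stay separate entries, and with what directions, depends partly on the merging. For example, chr8:4169001-4170100 and chr8:4169801-4172100 overlapped at day 5 and had log2 changes of 0.29 and -0.28. The part of the merging in these shares was not tested. The longest run on chromosome 8 was at the same place on both days. It held 4 higher regions at chr8:12230801-12242900 at day 5, with sums of 2726 and 2749 normalised reads at day 5, against 1753 and 1720 at day 0. At day 7 it held 5 regions at chr8:12230301-12247300, with 2526 and 2642 at day 7, against 1774 and 1732 at day 0.

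Chromosome 10 had the longer runs. At day 5 the longest held 6 higher regions over 17.6 kb at chr10:20692001-20709600, with sums of 3075 and 3191 at day 5, against 2041 and 2065 at day 0. At day 7 it held 6 higher regions over 19.5 kb at chr10:13380101-13399600, with 3299 and 3340 at day 7, against 2038 and 2185 at day 0. Runs of 4 or more regions numbered 2 on chromosome 8 and 6 on chromosome 10 at day 5, and 5 and 6 at day 7. The other 17 chromosomes together had 27 at day 5, over 1225 neighbours within 5 kb, and 35 at day 7, over 1656. The longest run elsewhere was also of 6 regions on each day.

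Direction went with enrichment at day 5 on both chromosomes. Of called members with an enrichment between 0.5 and 1, 9 of 44 were higher (20.5%). The share was 23.3% between 1 and 1.5, 38.8% between 1.5 and 2, 62.0% between 2 and 3, and 78.0% (85 of 109) at 3 or more. Below an enrichment of 0.5, where H3K9ac signal was weaker than input, 11 of 12 were higher. The other 17 chromosomes had the same order, with 15.7%, 21.9%, 40.8%, 62.6% and 80.5% over the same classes and 136 of 137 below 0.5. At day 7 the climb was weaker on the pair, with shares of 31.8%, 50.6%, 55.3%, 51.5% and 56.4%, and 8 of 8 below 0.5. It was weaker on the other 17 chromosomes too, with 33.1%, 44.1%, 49.8%, 50.3% and 55.4%, and 102 of 102 below 0.5. Enrichment and change come from the same libraries, and the part of that in the pattern was not tested.

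**Figure D5:**
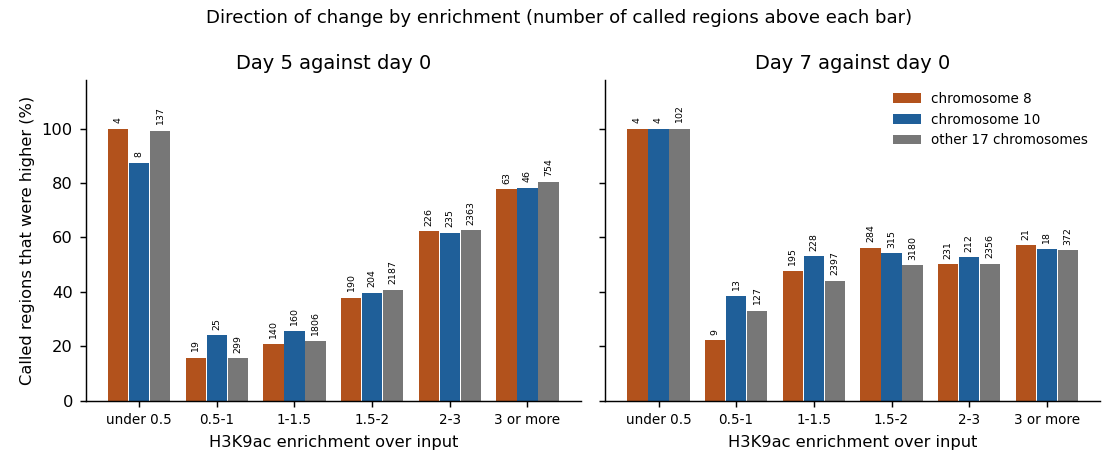
Percent of called regions that were higher in drought, by class of H3K9ac enrichment over input, for chromosome 8, chromosome 10 and the other 17 chromosomes, at day 5 (left) and day 7 (right), with the number of called regions above each bar. At day 5 the bars climb to 77.8% on chromosome 8 and 78.3% on chromosome 10 at an enrichment of 3 or more, and at day 7 those of chromosomes 8 and 10 stay between 47.7% and 57.1% from an enrichment of 1 upward.

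Longer regions changed more. On the pair, the median size of the log2 change of called regions was 0.38 for regions under 1.5 kb, 0.44 up to 2 kb, 0.55 up to 3 kb and 0.66 from 3 kb at day 5. At day 7 it was 0.35, 0.45, 0.53 and 0.66. The other chromosomes had 0.39, 0.47, 0.58 and 0.70 at day 5. A region grows by merging windows that passed the same threshold, so length and change are not independent. Direction did not follow length at day 5, when between 44.7% and 47.0% of called members were higher in each class.

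Severe and mild drought were compared directly in the regions with identical bounds in both lists. There were 94 on the pair (46 on chromosome 8 and 48 on chromosome 10) among 590 on the 19 chromosomes. A region listed on a single day, or with other bounds, is not in this set. The set therefore leans to sites alike on both days, and its calls do not speak for the other listed regions. The limma test called 0 of the 94, against a background of 0.0%, and 12 of the 94 had an unadjusted p under 0.05, against 58 of the 590. The log2 difference of day 7 minus day 5 ran between -0.38 and 0.36 on the pair, with a median of -0.01 and a median SE of 0.09, on the scale of the day 5 list. The highest was at chr8:10008701-10009700, with 227 and 212 reads at day 7, 168 and 174 at day 5, and 247 and 241 at day 0. The lowest was at chr10:20814901-20816900, with 284 and 316 at day 7, 370 and 409 at day 5, and 563 and 574 at day 0 (limma adjusted p = 0.283). In both the libraries of the 2 drought days did not overlap, which their choice as extremes favours. The differences did not pass the adjustment. Without the first day 5 library 2 of the 94 were called.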

How the data were processed

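H3K9ac and input libraries were sequenced at day 0, day 5 and day 7. The submitters' processing notes name Bowtie. Its version and the genome build are not given in full in the sources used here. Both deposited tables came from diffReps 1.55.4 per the file headers, with windows of 1000 bp moved by 100 bp and a window p-value threshold of 0.0001. Values are normalised read signals of both libraries per group, the deposited ratio of each group over its background, a deposited log2 fold change and deposited p-values with their adjustment. Per the file headers drought libraries were set over the day 0 input, and day 0 libraries over the drought input, so enrichment was recomputed as the geometric mean of both ratios.

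Rows on chromosomes 8 and 10 were taken by chromosome name. Protein-coding genes were counted per chromosome from the RefSeq table of assembly P.trichocarpa_v4.1, with no coordinates. limma 3.58.1 in R 4.3.3 was fitted to log2 normalised reads of every listed region, with no pseudocount, a trended prior and Benjamini-Hochberg adjustment over the whole table, and was tested on simulated data. With 2 libraries a group an exact permutation test cannot reach 0.05. Normalised values times a constant per library came out whole within 0.1 in 100% of regions, which gave reads per library. These carry no molecular identifiers and count listed regions alone.

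Named regions were, per day and chromosome, the 4 highest and 4 lowest changes among called regions whose higher group averaged 20 normalised reads or more. Per chromosome they were also the 3 higher and 3 lower of both days, ranked by the smaller of their 2 changes. Named bins of 1 Mb had the most or fewest regions or, with at least 10 called, the highest or lowest share higher, and named runs had gaps of at most 5 kb. The regions, rules and tests were chosen with earlier results of these data known. Other scalings, filters, bin widths and left-out libraries were tried.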

Additional observations from a re-analysis of the deposited data

Results flagged for a closer look

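The regions listed in the bin from 10 to 11 Mb of chromosome 10 lay on opposite sides of day 0 on the 2 days, on the deposited scale. Their summed normalised reads were 14706 and 14878 at day 5, against 15510 and 15628 at day 0, a ratio of 0.95, and 18244 and 18098 at day 7, against 17303 and 17411 at day 0, a ratio of 1.05. The sums cover regions listed separately for each day (33 at day 5 and 47 at day 7), so they are not a change of the same regions between the days. With libraries scaled by mean reads per bin, the ratio was 0.884 at day 5 and 0.926 at day 7, so the day 7 side turned. The difference between the days was not tested.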

How the results depend on the processing

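Depth in listed regions was 589552 to 861932 reads per library at day 5, and libraries of a group differed most there. Without the deposited constants, 0 members were called higher and 0 lower at day 5 (4 in the whole table), and 31 higher (3.96% of called) at day 7, with table medians of -0.17 and -0.39 on the log2 scale. Scaled by mean reads per bin, the share higher was 36.7% at day 5 and 32.5% at day 7, with 441 higher at day 7. Leaving out a library gave 409 to 592 higher and 460 to 696 lower at day 5, a share of 46.0% to 47.6%, and 663 to 775 higher and 571 to 711 lower at day 7, a share of 52.2% to 53.7%. The lowest counts at day 5 came without the first day 0 library. For day 7 against day 5 the range was 0 to 2 calls. Labels do not say that replicate numbers pair libraries, and deviations of same-numbered libraries had a correlation of 0.11 at day 5 and 0.09 at day 7. With a replicate block 604 members were higher and 691 lower at day 5, against 614 and 706 without it. At day 7 they were 808 and 726, against 810 and 724. No named region changed its call with the block. The 39 named results were picked by size of change from the same libraries, which favours keeping their call. Of 507 alternatives for them, 488 kept direction and call, 19 lost the call (all at day 5 without the constants) and 0 reversed. The causes of these shifts were not tested.

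Called regions alone gave 33.5 regions per Mb on chromosome 8 and 30.0 on chromosome 10 at day 5, and 38.8 and 35.0 at day 7. A deposited adjusted p under 0.0001 gave 28.3 and 25.5 at day 5, and 33.1 and 29.1 at day 7, though that value did not always follow the change. The deposited enrichment of the group with more reads had medians of 2.25 and 2.07 at day 5, and 2.08 and 2.00 at day 7. For density in the reversed reading, r was 0.74 at day 5 and 0.75 at day 7 with 20 equal shares, 0.54 and 0.49 without sparse bins, 0.62 and 0.67 with chromosome 8 taken from its last listed region, and 0.77 at day 7 with 0.5 Mb bins. For the share higher, r at day 5 was -0.13 with 0.5 Mb bins, -0.63 with 2 Mb bins, 0.13 with 20 shares, -0.49 for called regions, 0.06 for a deposited adjusted p under 0.0001, 0.11 without sparse bins and 0.20 from the end of chromosome 8. At day 7 it was -0.29, -0.72, 0.38, -0.45 and 0.19 in the same order, 0.15 from the end of chromosome 8, and 0.10 read forward with 20 shares. Scaling by mean reads per bin turned the ratio of the chromosome 10 bin from 10 to 11 Mb at day 7 to 0.926, against 1.05 as deposited. The settings by mean reads per bin, sparse bins and the end of chromosome 8 were chosen after seeing the data. The edgeR and DESeq2 alternatives on recovered reads were not run, because the deposited cells hold pairs of normalised values.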
